A study of Homo sapiens with 4 samples.

Results

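Integrins that bind collagen or laminin were followed by their transcripts in MV3 melanoma spheroids, between the core and the surrounding invasion zone. The group was chosen by ligand and holds 9 genes of the 56304 gene rows in the count table, out of 26 integrin subunit genes. ITGA1, ITGA2, ITGA10 and ITGA11 encode the alpha subunits that bind collagen, ITGA3, ITGA6 and ITGA7 encode alpha subunits that bind laminin, and ITGB1 and ITGB4 encode the beta subunits with which they pair. Within each ligand class the make-up differed between the zones. ITGA2 and ITGA6 took larger shares in the invasion zone, although the levels of ITGA2 overlapped between the zones. ITGA11, ITGA10, ITGA3, ITGA1 and ITGB4 had lower levels in the invasion zone, and the zone means of ITGB1 were 1.07-fold apart. In a fit without a term for the replicate, 0 of the 9 members passed an adjusted p under 0.05.

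Integrins are heterodimers of one alpha and one beta subunit that span the plasma membrane and connect the extracellular matrix to the actin cytoskeleton, or, for the pair of ITGA6 with ITGB4, to keratin filaments in hemidesmosomes. The alpha subunit largely sets the ligand. All collagen-binding alpha subunits pair with ITGB1, so they draw on a common pool of beta subunit, which the laminin-binding alpha subunits use as well. Melanoma cells use the collagen-binding integrins to grip fibrillar collagen during migration, and the laminin-binding integrins are receptors for basement membrane.

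MV3 is an established human melanoma cell line, used here with an H2B-GFP label in its nuclei and left untreated in collagen I as spheroids of 50000 cells. Punches, of 1 mm for the core and of 3 mm for the invasion zone around it, separated the zones on day 2 and gave 2 libraries per zone, numbered 1 and 2. The core sample can therefore include some invading cells that lay over or under it. Nothing in the labels says that the 2 libraries of a zone came from separate cultures, so the p-values measure only the spread between these samples.

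The libraries held 36363358 and 14983135 counts in the core and 37591782 and 11789243 counts in the invasion zone for replicates 1 and 2. Levels of single genes are given as CPM, the counts of a gene scaled to a common library size after TMM normalization. Sums over several genes are in CPM of all counts in the library, without the TMM factor, and so differ slightly in scale. Of 17 melanoma and neural crest markers, 11 passed the count filter, with AXL between 629 and 1224 CPM and MITF between 1.71 and 3.37 CPM, whereas SOX10 and TYR had 0 counts in all 4 libraries. The 17 markers summed to 941 and 1077 CPM in the core and to 1640 and 1586 CPM in the invasion zone. With the block and no minimum fold, 3 of them were higher and 0 lower, beside 20% and 20.1% of all genes. The 3 were AXL, NES and MCAM, at log2 fold changes of 0.89, 0.45 and 0.45. The summed level of the 9 fibroblast markers was 209 and 152 CPM in the core and 108 and 52.2 CPM in the invasion zone, with PDGFRA between 13.6 and 95.2 CPM, POSTN between 28.3 and 87.7 and FAP between 9.43 and 27.9. These 3 fell with the block, at log2 fold changes of -1.64, -0.89 and -1.33, and DCN, LUM and TCF21 were at 0 in every library. The keratinocyte and epithelial markers summed to between 246 and 266 CPM, mostly from KRT18 (118 to 158 CPM) and KRT10 (85.4 to 121 CPM). CDH1 and EPCAM were at 0 to 2 counts per library. With the block and no minimum fold, KRT10 was higher, at a log2 fold change of 0.38, beside 20% of all genes. KRT8 and TP63 were lower, at -0.74 and -1.63, beside 20.1% of all genes, and KRT18 did not pass. The endothelial markers summed to between 4.92 and 24.2 CPM with KDR at 0, and the leukocyte markers to between 0.848 and 2.92 CPM with CD3E at 0. PECAM1 carried most of the endothelial sum in core replicate 1, at 18.1 CPM, and was at 0.926 CPM in invasion zone replicate 2, and CD14 was at 1.37 and 1.06 CPM in the core and 0.294 and 0.337 CPM in the invasion zone. Both fell with the block, whereas the other tested endothelial and leukocyte markers, ROBO4, TIE1 and CSF1R, did not pass. ROBO4 was at 5.78 and 5.04 CPM in the core and at 6.11 and 3.96 CPM in the invasion zone. In bulk samples, fewer cells with a transcript and less of that transcript per cell cannot be told apart.

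To show both directions, the bases upstream of a transcription start are given for ITGA10 and ITGA11, which were lower in the invasion zone by more than 2-fold, and for ITGA2 and ITGA6, the members that rose with the block described below. ITGB4, ITGA3 and ITGA7 had no window in the table used, and those of ITGA1 and ITGB1 are not shown. The sequences are from RefSeq on GRCh38.p14 and come from windows of 250 bases that end just before a start site, written 5′ to 3′ on the strand of the gene. For ITGA6 the window shown ends 250 bases before the canonical start, at the more upstream of 2 start sites. The window of the canonical start is not shown, because it lies mostly inside the gene. Of the other windows, the last 61 bases for ITGA10 and 12 for ITGA2, which GENCODE places inside the gene, were left out. Capitals mark matches on either strand to 4 motifs, namely the core of the hypoxia-inducible factor site (HIF, ACGTG or GCGTG), the AP-1 site (TGACTCA or TGAGTCA), the TEAD site (GGAATG) and the GC box (GGGCGG), where the HIF core matched the palindrome of ITGA6 on both strands.
ITGA10, chr1:145910112-145910300, minus strand: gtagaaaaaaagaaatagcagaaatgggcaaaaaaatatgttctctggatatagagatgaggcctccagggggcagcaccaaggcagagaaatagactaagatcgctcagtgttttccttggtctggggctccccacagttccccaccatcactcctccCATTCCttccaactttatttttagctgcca
ITGA11, chr15:68432164-68432413, minus strand: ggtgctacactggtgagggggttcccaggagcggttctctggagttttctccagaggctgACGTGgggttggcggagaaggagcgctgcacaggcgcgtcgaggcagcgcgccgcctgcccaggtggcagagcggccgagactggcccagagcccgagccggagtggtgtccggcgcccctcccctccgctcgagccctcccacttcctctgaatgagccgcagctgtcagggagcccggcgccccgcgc
ITGA2, chr5:52989102-52989339, plus strand: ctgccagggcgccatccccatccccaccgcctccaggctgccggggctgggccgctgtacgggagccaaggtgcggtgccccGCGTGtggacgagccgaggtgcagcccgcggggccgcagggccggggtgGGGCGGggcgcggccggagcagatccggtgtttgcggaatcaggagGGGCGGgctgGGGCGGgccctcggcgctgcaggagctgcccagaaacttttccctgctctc
ITGA6, chr2:172427086-172427335, plus strand: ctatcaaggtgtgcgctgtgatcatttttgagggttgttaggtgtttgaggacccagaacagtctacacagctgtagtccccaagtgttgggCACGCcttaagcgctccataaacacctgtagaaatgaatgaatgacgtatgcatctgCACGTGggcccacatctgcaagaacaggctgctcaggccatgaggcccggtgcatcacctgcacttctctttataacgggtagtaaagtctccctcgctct
The stretches of ITGA2 and ITGA11 were rich in GC, at 75.6% and 71.2%, and those of ITGA6 and ITGA10 less so, at 50.8% and 46%. The window of the canonical start of ITGA6, which is not shown, went the other way, with 71.6% GC, 3 GC boxes and 1 HIF core. The HIF core letters occurred upstream of ITGA11, ITGA2 and ITGA6, and so in genes of both directions, whereas the GC box occurred in ITGA2 and the TEAD letters in ITGA10 among the sequences shown. Among 35116 windows of this length in the RefSeq table, 43.2% held the HIF core, 42.6% the GC box, 11.9% the TEAD letters and 4.2% an AP-1 site. The table had windows for 6 of the 9 members, with 8 start sites in all, of which 4 held the HIF core, 3 the GC box, 2 the TEAD letters and 0 an AP-1 site. For the HIF core this is near the share over all windows. A match is a description of letters and not evidence of binding.

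All 9 members passed the filter on low counts and were tested among 15529 genes with edgeR's quasi-likelihood test, where a gene was called at a Benjamini-Hochberg adjusted p under 0.05 and a difference of at least 2-fold. Without a term for the replicate, 0 of 9 members were called higher and 0 lower in the invasion zone, where 0% and 0% of all genes were called, and the smallest adjusted p over all genes was 0.103. When p was left unadjusted, with the 2-fold difference kept, 0 members were higher and 2 lower (ITGA10 and ITGB4), beside 3.19% and 6.41% of all genes. DESeq2 with adjusted p called 0 higher and 1 lower, ITGA10, beside 2.27% and 3.44% of all genes.

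The methods take a core and its invasion zone from one spheroid, and libraries with the same number differed from their zone means in a like way. A fit that blocks on the replicate number therefore stands beside each value, although no source states that the number marks a shared spheroid. Both replicate 2 libraries were also the shallower ones, so a shared spheroid and a shared depth or handling cannot be told apart by this likeness. This fit has 1 residual degree of freedom per gene before the spread is shared across genes. With the block, ITGA10, ITGA11 and ITGB4 were called lower and 0 members higher, where 7.39% of all genes were called lower and 3.79% higher. With no minimum on the fold difference, 2 members were higher (ITGA2 and ITGA6) and 5 lower (ITGA1, ITGA10, ITGA11, ITGA3 and ITGB4) at an adjusted p under 0.05, beside 20% of all genes higher and 20.1% lower. The zones did not overlap for 7 members, with the invasion zone above the core for ITGA6 and ITGB1 and below it for the same 5, where 28.1% and 30.3% of all genes separated in these directions. Below, "rose" and "fell" are used for members that passed the adjusted threshold in the fit with the replicate block, and none of them did so without it.

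**Figure D1:**
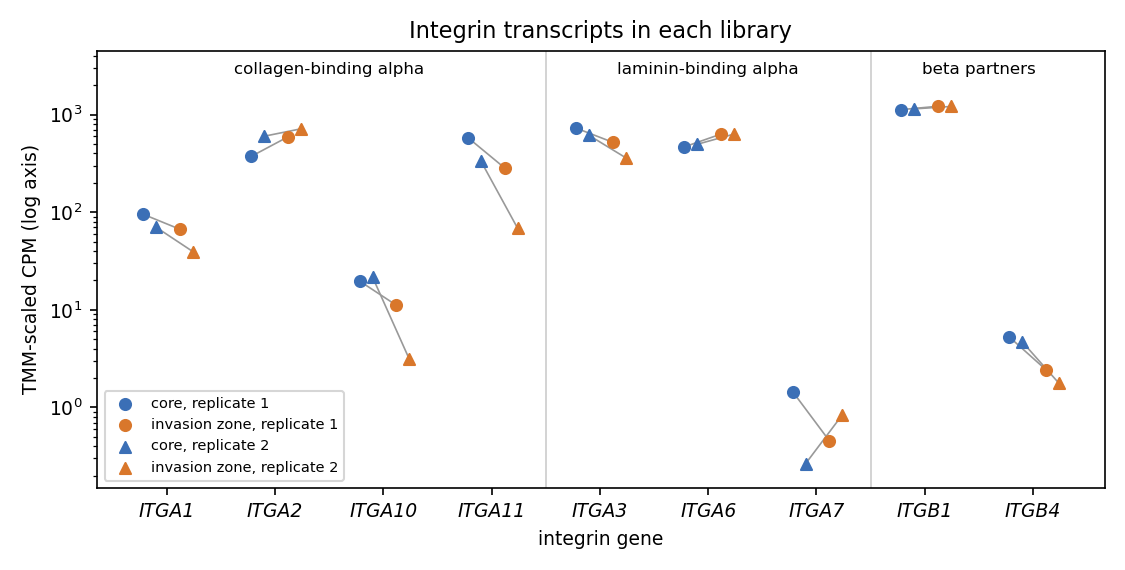
TMM-scaled CPM of the 9 integrin genes in each of the 4 libraries on a log axis, with core libraries in blue, invasion zone libraries in orange, and a line joining the libraries of a replicate number. ITGB1 lies between 1121 and 1214 CPM in all libraries, ITGA11 spans 68.4 to 581 CPM, and the lines of ITGA7 cross.

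Among the collagen-binding alpha subunits, ITGA2 with ITGB1 forms a receptor for fibrillar collagen I. ITGA2 (chr5:52989340-53094779 on the plus strand of GRCh38) was at 373 and 599 CPM in the core and at 592 and 714 CPM in the invasion zone (replicates 1 and 2). The ranges overlapped, because core replicate 2 lay above invasion zone replicate 1, and within each replicate number the invasion zone was higher. The log2 fold change was 0.43 ± 0.26 (SE, adjusted p = 0.357), and with the block ITGA2 rose by 0.46 ± 0.10 (adjusted p = 0.00785), that is 1.38-fold. The log2 difference was 0.67 (95% counting interval 0.64 to 0.70) within replicate 1 and 0.25 (0.21 to 0.30) within replicate 2. Single libraries moved the value without the block to 0.13 when core replicate 1 was left out, to 0.82 when core replicate 2 was and to 0.28 when invasion zone replicate 2 was.

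ITGA11, a collagen I receptor known mainly from fibroblasts and other mesenchymal cells, showed the largest difference of the abundant members. ITGA11 (chr15:68296532-68432163, minus strand), whose upstream window is given above, was at 581 and 335 CPM in the core and at 284 and 68.4 CPM in the invasion zone. The zones did not overlap, and replicate 2 was the lower one in each of them. Without the block the log2 fold change was -1.37 ± 0.66 (SE, adjusted p = 0.255), and with the block ITGA11 fell by 1.63 ± 0.24 on the log2 scale (adjusted p = 0.00117), that is 3.1-fold. Within replicate 1 the log2 difference was -1.03 (95% counting interval -1.07 to -1) and within replicate 2 it was -2.29 (-2.40 to -2.19), so that the replicates differed by more than counting error. The value without the block was -0.69 without invasion zone replicate 2 and -2.75 without invasion zone replicate 1. The summed fibroblast markers, and likewise the endothelial and leukocyte ones, had the same order over the 4 libraries as ITGA11, ITGA1, ITGA3 and ITGB4. So did the sums of the collagen ligands, laminin ligands, other integrins and HIF target genes described below. The order was thus not particular to the cell type markers, and the part of these markers in the results was not tested.

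ITGA10, which encodes a collagen receptor best known from cartilage, fell as well in the fit with the block. ITGA10 (chr1:145891208-145910111, minus strand) was at 19.7 and 21.6 CPM in the core and at 11.1 and 3.11 CPM in the invasion zone, from 705, 326, 417 and 37 counts. The core libraries were alike, and the invasion zone libraries lay below both and apart from each other. ITGA10 had a log2 fold change of -1.43 ± 0.51 (SE, adjusted p = 0.165), and with the block the value was -1.44 ± 0.34 (adjusted p = 0.0111), a 2.72-fold difference. The log2 difference was -0.82 (95% counting interval -1 to -0.65) within replicate 1 and -2.80 (-3.33 to -2.30) within replicate 2. DESeq2 with the block did not call ITGA10 (log2 fold change -1.78, adjusted p = 0.11), where it called 2.76% of all genes higher and 4.83% lower. Without invasion zone replicate 2 the edgeR value without the block was -0.89, under 2-fold, and without invasion zone replicate 1 it was -2.73. The study named ITGA10 from these libraries, so its direction here is no independent evidence.

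ITGA1 encodes a receptor that prefers the collagen IV of basement membranes over fibrillar collagen. ITGA1 (chr5:52787916-52959209, plus strand) was at 95.3 and 70.2 CPM in the core and at 66.9 and 39.5 CPM in the invasion zone. Core replicate 2 and invasion zone replicate 1 were close to each other, although the ranges did not overlap. For ITGA1 the log2 fold change was -0.63 ± 0.29 (SE, adjusted p = 0.242), and with the block ITGA1 fell by 0.66 ± 0.10 on the log2 scale (adjusted p = 0.00161), that is 1.58-fold. The value without the block was -0.38 when core replicate 1 was left out, -0.31 without invasion zone replicate 2 and -1.07 without invasion zone replicate 1. ITGA1 shares 1070 exonic bases with PELO and RPL17P21 on its own strand and 1494 with antisense genes, of 18545 in all, so that its count is uncertain where reads fall there. PELO itself had 1629, 788, 2187 and 672 counts in core replicates 1 and 2 and invasion zone replicates 1 and 2.

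Among the laminin-binding alpha subunits, ITGA6 and ITGA3 were of similar abundance and moved in opposite directions. ITGA6, which pairs with ITGB1 or ITGB4 (chr2:172427354-172506459, plus strand), was at 466 and 496 CPM in the core and at 632 and 631 CPM in the invasion zone. The invasion zone was the higher one throughout, and the replicates of a zone were close. Without the block the log2 fold change was 0.39 ± 0.14 (SE, adjusted p = 0.169), and with the block ITGA6 rose by 0.39 ± 0.07 (adjusted p = 0.0034), that is 1.31-fold. The 2 replicates gave 0.44 (95% counting interval 0.41 to 0.47) and 0.35 (0.30 to 0.39).

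ITGA3, which with ITGB1 forms a receptor for the laminins of epithelial basement membrane, was at 726 and 612 CPM in the core and at 519 and 360 CPM in the invasion zone (chr17:50055968-50090481, plus strand). The zones did not overlap, and replicate 2 was the lower one in each zone. For ITGA3 the log2 fold change was -0.61 ± 0.22 (SE, adjusted p = 0.174), and with the block ITGA3 fell by 0.62 ± 0.09 on the log2 scale (adjusted p = 0.000899), that is 1.54-fold. This value changed with the processing, and with the trend of each library on GC content and transcript length removed the log2 fold change with the block was -0.28. The value without the block was -0.37 without invasion zone replicate 2.

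ITGA7, the laminin receptor of muscle, was close to the limit of detection (chr12:55684568-55716404, minus strand). It had 52 and 4 counts in the core and 17 and 10 counts in the invasion zone, or 1.45, 0.265, 0.454 and 0.842 CPM. The zones overlapped, and the replicates pointed in opposite directions, at a log2 difference of -1.68 (95% counting interval -2.56 to -0.87) in replicate 1 and 1.67 (-0.13 to 3.79) in replicate 2. ITGA7 did not pass without or with the block (adjusted p = 0.523 and 0.108), and at these low counts no difference shared by the replicates was detected.

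The beta partner of all 7 alpha subunits, ITGB1 (chr10:32887273-33005792, minus strand), had the steadiest level of the 9 genes. It was at 1121 and 1142 CPM in the core and at 1214 and 1209 CPM in the invasion zone. The invasion zone libraries were the higher ones, with zone means 1.07-fold apart. In the fits the log2 fold change was 0.10 ± 0.16 (SE, adjusted p = 0.738) without the block and 0.10 ± 0.07 (adjusted p = 0.316) with it, so the difference did not pass in either fit. The processed pseudogene ITGB1P1 had 122, 38, 137 and 19 counts against 40133, 17217, 45496 and 14362 for ITGB1 in core replicates 1 and 2 and invasion zone replicates 1 and 2.

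ITGB4, the beta subunit of hemidesmosomes, whose only alpha partner is ITGA6, was rare (chr17:75721328-75757818, plus strand). It was at 5.28 and 4.71 CPM in the core and at 2.43 and 1.77 CPM in the invasion zone, from 189, 71, 91 and 21 counts. The zones did not overlap, and ITGB4 moved in the opposite direction from ITGA6. The log2 fold change was -1.20 ± 0.31 (SE, adjusted p = 0.121), and with the block it was -1.20 ± 0.25 (adjusted p = 0.00585), a 2.3-fold difference. With the trend on GC content and length removed the value with the block was -0.82, which is under the 2-fold minimum.

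**Figure D2:**
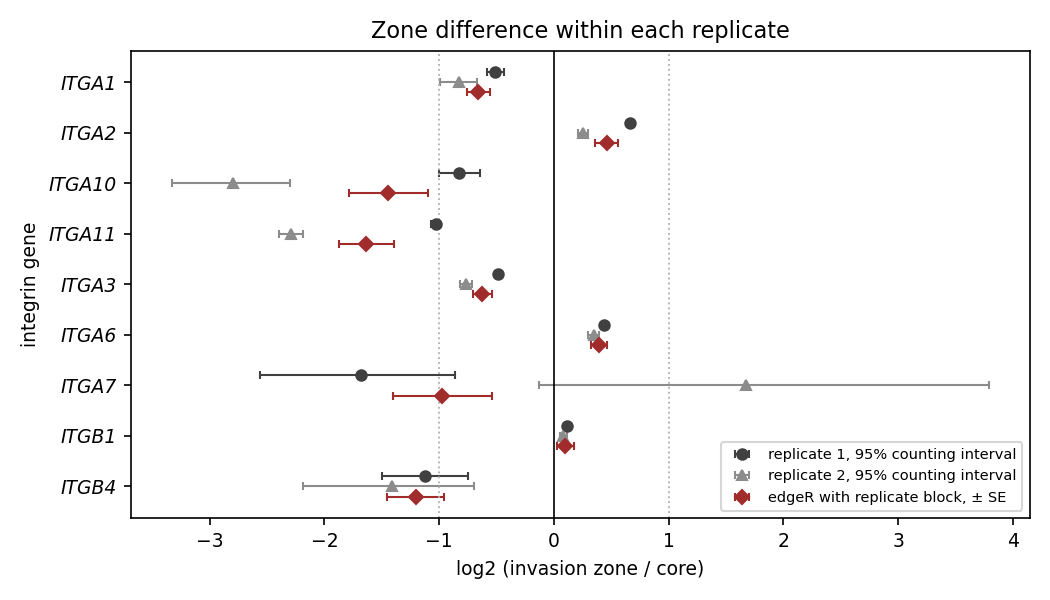
The log2 difference of the invasion zone over the core for each integrin gene within replicate 1 (dark circles) and replicate 2 (grey triangles), with 95% counting intervals, and the edgeR estimate with the replicate block ± SE (red diamonds), where dotted lines mark 2-fold. ITGA2 and ITGA6 lie to the right of 0 in both replicates, ITGA1, ITGA10, ITGA11, ITGA3 and ITGB4 to the left, and ITGA7 on either side.

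Levels of different genes were set side by side after division by length, as CPM per kb of all exonic bases. In the core the order was ITGB1 at 77.7 ± 1.02 (SD, n = 2), ITGA6 at 72.0 ± 3.17, ITGA3 at 68.2 ± 8.25, ITGA2 at 61.6 ± 20.3 and ITGA11 at 42.2 ± 16, followed by ITGA1 at 4.46 ± 0.957, ITGA10 at 3.31 ± 0.218, ITGB4 at 0.739 ± 0.0598 and ITGA7 at 0.0946 ± 0.0925. In the invasion zone ITGA6 came first at 94.5 ± 0.0635, then ITGB1 at 83.2 ± 0.243 and ITGA2 at 82.7 ± 11.0, followed by ITGA3 at 44.8 ± 11.5, ITGA11 at 16.2 ± 14.0, ITGA1 at 2.87 ± 1.04, ITGA10 at 1.14 ± 0.908, ITGB4 at 0.310 ± 0.0692 and ITGA7 at 0.0713 ± 0.0302. From ITGA6 down to ITGA11 in the core, each gene overlapped with its neighbour in this order, as did ITGB1 and ITGA2 in the invasion zone, and the other neighbours did not overlap. The place of ITGB1 depended on the length used, since its exonic bases sum to 14561 and its canonical transcript has 3735. By canonical length ITGB1 was at 303 ± 3.98 CPM per kb in the core and 324 ± 0.947 in the invasion zone, above every alpha subunit in each library.

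Within the collagen-binding alpha transcripts the composition differed between the zones and also between the replicates. ITGA2 made up 43.3% and 66.6% of their counts per kb of exon in the core and 70.4% and 91.0% in the invasion zone. ITGA11 made up 49.1% and 27.1% in the core and 24.5% and 6.34% in the invasion zone, so that for ITGA2 and ITGA11 the zones did not overlap, although core replicate 2 and invasion zone replicate 1 were near each other. ITGA11 was thus slightly above ITGA2 in core replicate 1, with a ratio of 1.13, and below it at 0.406, 0.348 and 0.0696 in core replicate 2 and invasion zone replicates 1 and 2. ITGA1 took between 2.14% and 4.72% and ITGA10 between 0.502% and 3.04%.

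Within the laminin-binding alpha transcripts ITGA6 made up 48.5% and 54.3% in the core and 64.1% and 71.9% in the invasion zone. ITGA3 made up 51.4% and 45.6% in the core and 35.9% and 28% in the invasion zone, and ITGA7 at most 0.111%. The zones did not overlap for either gene. The ratio of ITGA3 to ITGA6 was 1.06 and 0.84 in the core and 0.56 and 0.389 in the invasion zone. By canonical length ITGA3 was the larger of the pair in the core, with ratios of 1.85 and 1.47, and the smaller in the invasion zone, with ratios of 0.978 and 0.679. The 95% exact binomial intervals of these shares reached at most 0.75 percentage points to a side and cover counting error only. These shares come from the same counts as the fold changes and were not tested on their own.

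**Figure D3:**
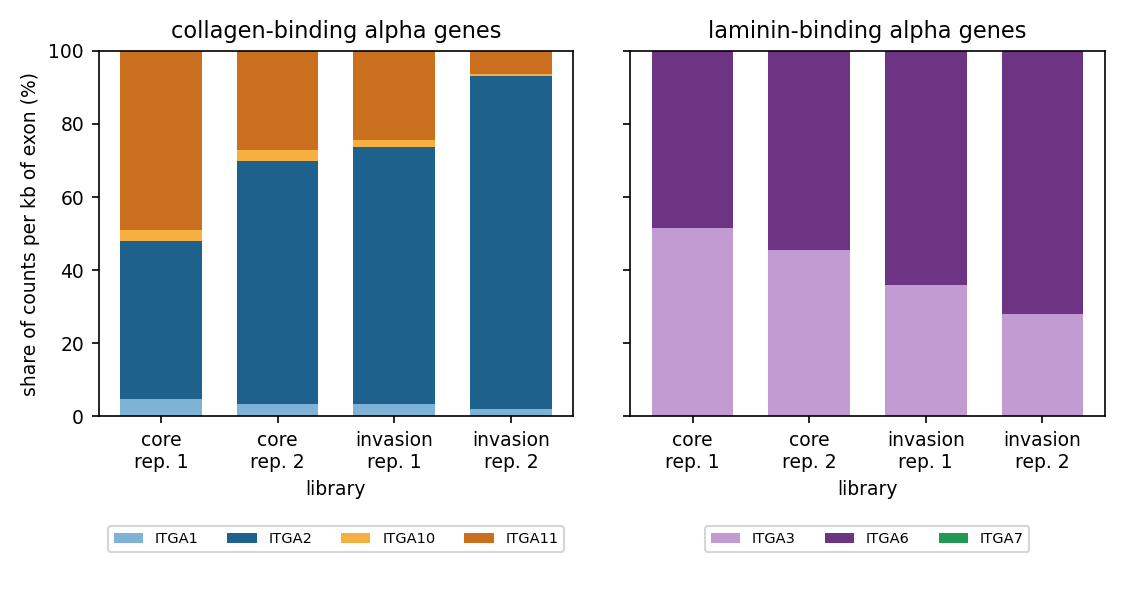
Share of each alpha gene in the counts per kb of exon, in percent, for the collagen-binding genes (left) and the laminin-binding genes (right) in the 4 libraries. ITGA2 goes from 43.3% in core replicate 1 to 91.0% in invasion zone replicate 2, and ITGA6 from 48.5% to 71.9%.

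The summed classes were set against each other and against ITGB1. The ratio of collagen-binding to laminin-binding alpha transcripts, per kb of exon, was 0.757 and 0.834 in the core and 0.721 and 0.757 in the invasion zone, with a log2 difference of -0.10 (2-sided exact permutation test, p = 0.667). The ratio of collagen-binding alpha transcripts to ITGB1 was 1.41 and 1.45 in the core and 1.28 and 1.20 in the invasion zone, a log2 difference of -0.21 (exact permutation p = 0.333). That of laminin-binding alpha transcripts to ITGB1 was 1.87 and 1.74 against 1.77 and 1.58, a log2 difference of -0.11 (exact permutation p = 0.667). The ratios depended on the length used. By canonical length the ratio of collagen-binding to laminin-binding alpha transcripts had a log2 difference of -0.0026 (exact permutation p = 1), at 0.02 in replicate 1 and -0.03 in replicate 2, so that its sign differed between the replicates. The log2 differences of the ratios to ITGB1 were -0.25 for collagen-binding and -0.25 for laminin-binding alpha transcripts by that length. With 2 libraries per zone the smallest p this test allows is 0.333, so it cannot reach 0.05. Over the 4 libraries the sum of the 9 members lay between 3051 and 3335 CPM.

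The other genes of the pathway were described from lists, by their counts in the fit with the replicate block and by their median log2 fold change without it, where the median of all genes tested was -0.01. Of the lists described here, 0 genes were called by edgeR without the block. Over all genes tested, the fit with the block called 3.79% higher and 7.39% lower. With no minimum fold these shares were 20% and 20.1%, and the counts of each list stand beside them. Of 17 other integrins 7 were tested, with 0 called higher and 2 lower, and a median of -0.57, beside -0.63 for the 9 members. The 2 were ITGB3 (7.94 and 10.7 CPM in the core, 1.01 and 0.253 in the invasion zone, fell by 3.43 ± 0.37 on the log2 scale) and ITGB8 (184 and 84.3 CPM against 47.5 and 9.59, fell by 2.41 ± 0.22), which both pair with ITGAV. The study named ITGB3 from these libraries too. With no minimum on the fold, 4 of the 7 were lower and 1 was higher, ITGAE, at 0.725 ± 0.116.

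Most tested genes for the ligands of these integrins fell with the block, namely 12 of 13 for collagens and 10 of 11 for laminins and nidogens when no minimum fold was set. Of 18 genes for fibrillar and basement membrane collagens 13 were tested, of which 0 were called higher and 11 lower, with a median log2 fold change of -1.34. Among them COL3A1, a fibrillar collagen at only 0.0842 to 1.98 CPM, had a log2 fold change of -2.30 ± 0.43. COL9A3, a collagen of cartilage at 0.881 to 5.11 CPM, had one of -1.79 ± 0.30. COL1A1, a chain of collagen I at 217 to 1081 CPM, had one of -1.57 ± 0.12. Of 13 laminin and nidogen genes 11 were tested, with 0 called higher and 4 lower and a median of -0.82. LAMA5, LAMB2 and NID2 had log2 fold changes of -1.67 ± 0.19, -1.61 ± 0.13 and -1.55 ± 0.25. The collagen list contains genes that the study picked from these libraries, as does the laminin list with LAMA5, so their direction is no independent evidence.

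Of 12 receptors for the same ligands outside the integrin family, 10 were tested, with 0 called higher and 3 lower and a median of -0.53. DDR1, a receptor tyrosine kinase for collagen, had a log2 fold change of -1.54 ± 0.17, MRC2, a receptor that takes up collagen for degradation, one of -1.45 ± 0.12, and BCAM, a laminin receptor, one of -1.24 ± 0.24. With no minimum on the fold, 5 of these receptors were lower and 2 higher with the block. The 2 were SDC1 and RPSA, at 0.77 ± 0.07 and 0.69 ± 0.13.

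Lists of genes that act on integrins inside the cell also had members in both directions. Of 17 activators and inhibitors, talins and kindlins among them, 0 were called in either direction, with a median of 0.04, and 4 were higher and 1 lower with the block when no minimum fold was set. Of 36 tested focal adhesion genes 1 was called higher and 4 lower, with a median of 0.05. TES, at 0.112 to 0.667 CPM, rose by 1.79 ± 0.61 on the log2 scale, and the values of PTK2B, LIMS2 and TNS3 were -1.65 ± 0.38, -1.62 ± 0.22 and -1.38 ± 0.18. With no minimum on the fold, 11 focal adhesion genes were higher and 6 lower, beside 20% and 20.1% of all genes. Of 12 tetraspanins and other lateral partners 1 was called lower, CD82, which fell by 1.07 ± 0.13 on the log2 scale (median of the list below 0 by less than 0.01). Of 16 tested genes for integrin trafficking and of 4 tested hemidesmosome partners of ITGB4, 0 were called, with medians of 0.06 and 0.13.

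**Figure D4:**
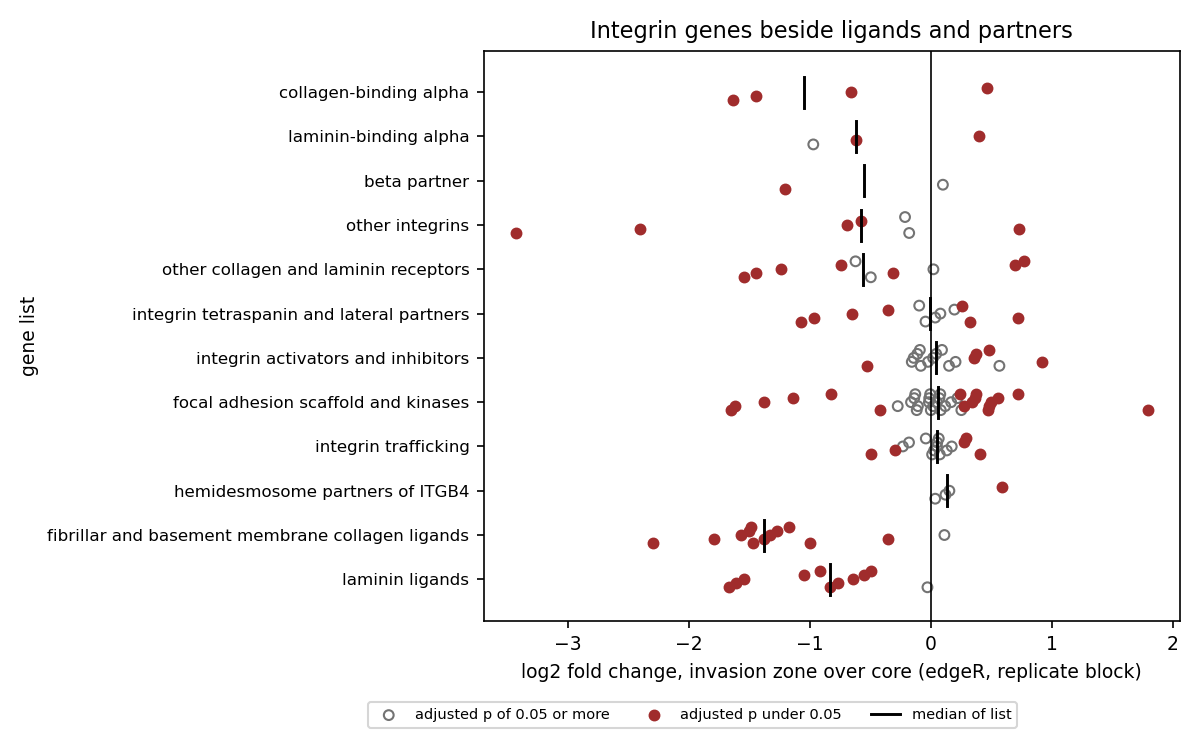
Log2 fold change, invasion zone over core, from edgeR with the replicate block, for each tested gene (points) of the integrin groups and of the lists of partners and ligands, with filled points at an adjusted p under 0.05 and black lines at the median of each list in that fit. The collagen and laminin ligands lie mostly between -0.5 and -2.3, and the activators, focal adhesion and trafficking genes scatter around 0.

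HIF target genes were listed for context. Of 17 tested targets 0 were called higher and 12 lower with the block, at a median log2 fold change of -1.28. In that fit the values of CA9, NDRG1 and PFKFB4 were -4.26 ± 0.30, -3.00 ± 0.15 and -2.36 ± 0.14. The list includes VEGFA, which the study named from these libraries. The part of hypoxia in the members' values was not tested.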

How the data were processed

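Bulk RNAseq was made from low-input cDNA. The authors filtered out ribosomal RNA with Bowtie, aligned to hg38 with STAR and used HTSeq-count on uniquely mapped reads, and the deposited values are raw counts. Neither the versions nor the annotation and strand setting of the counting were given, so reads of genes that overlap on opposite strands cannot be told apart. Of 56306 gene rows, 2 repeated rows without counts were left out. Libraries held 36363358 and 14983135 counts (core) and 37591782 and 11789243 counts (invasion zone).

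In R 4.3.3, a gene was kept where at least 2 libraries reached the equivalent of 10 counts at the median depth and the total was at least 15, and the zones were compared with edgeR 4.0.16 (quasi-likelihood test, TMM scaling, Benjamini-Hochberg adjustment). DESeq2 1.42.0, limma 3.58.1 and a GC and length offset by mgcv 1.9.3 served as alternatives. Standard errors were derived from the F statistic. The methods take the core and its corresponding invasion zone from one spheroid, and libraries with the same replicate number follow each other in library numbering. This was taken as pairing, although no source used here states that the number marks a shared spheroid. Deviations of same-numbered libraries from their zone means correlated at 0.584 across genes, over 2 pairs. GENCODE release 44 (GRCh38) gave exon lengths and positions and matched 98.1% of the identifiers. The 9 members are all described. From each list up to 3 called genes a direction with the largest log2 fold change are named. AXL, MITF, PELO, ITGB1P1, ITGAE, SDC1, RPSA and the single marker genes were named after their values were seen. The members and lists were chosen with earlier results of these data known. The scripts were tested on simulated data.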

Additional observations from a re-analysis of the deposited data

How the results depend on the processing

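Without a replicate term edgeR called 0 genes and 0 members in either direction. The replicate block gave 588 genes higher and 1147 lower and 3 members lower. Other counts (genes higher, genes lower, members lower) were 353, 534 and 1 by DESeq2, 444, 840 and 2 by DESeq2 with unadjusted p, 428, 750 and 2 by DESeq2 with the replicate block, 575, 1088 and 3 by limma voom with the block, 495, 995 and 2 by edgeR with unadjusted p, and 813, 1039 and 2 with the block and the GC and length trend removed. With the block and no minimum fold they were 3107, 3116 and 5, with 2 members higher, and with no count filter 81 and 191 genes were called. The share of higher calls at unadjusted p was 33.2%, and 43.5% with the GC and length trend removed, and with the block 33.8% and 43.9%. Leaving out 1 library gave 8 to 693 genes higher, 108 to 969 lower and 0 to 3 members lower, the lone library being assumed to vary like the other zone. Without core replicate 1 there were 8 and 108 genes, without core replicate 2 693 and 835 (ITGA10 and ITGA11 called), without invasion zone replicate 1 533 and 969 (ITGA1, ITGA10 and ITGA11 called), and without invasion zone replicate 2 152 and 275.

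Over the alternatives the log2 fold change kept its direction for every member except ITGA7, which ranged from -1.33 to 1.09 as single libraries were left out and was 1.09 without core replicate 1. It ranged from -1.07 to -0.31 for ITGA1, 0.13 to 0.82 for ITGA2, -2.73 to -0.89 for ITGA10 and -2.75 to -0.69 for ITGA11. The ranges were -0.90 to -0.27 for ITGA3, 0.36 to 0.45 for ITGA6, 0.07 to 0.12 for ITGB1 and -1.51 to -0.81 for ITGB4. For ITGA1, ITGA10 and ITGA11 the ends came from leaving out an invasion zone library, and for ITGA2 from leaving out a core library. ITGA10 was not called by DESeq2 with the block, and ITGB4 was not with the GC and length trend removed. The cause of these shifts was not tested. The collagen to laminin ratio went from -0.10 to -0.0026 by canonical length, and the design cannot reach 0.05 for any ratio. Shallow replicate 2 libraries limit ITGA7, ITGB4 and ITGA10.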

Other observations

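Over the 4 libraries, the genes whose mean-centred log2 CPM lay nearest to that of ITGB1 were PEBP1, DCUN1D1 and MED7, at a root mean square difference of 0.00595, 0.00946 and 0.00984, with 1487 genes within 0.1, so a level pattern of this kind was common. For ITGA10, the member with the largest fold change without the block, the nearest were TIE1, SAMD14 and IFIT2, at 0.0783, 0.0807 and 0.0878, with 4 genes within 0.1. TIE1, an endothelial receptor kinase, was itself at no more than 0.464 CPM in any library. With 4 libraries such likeness is a description.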
